A study of Mus musculus with 6 samples.

Results

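The 36 genes described here make cholesterol, sense and move it, or make fatty acids under the same control. They were chosen by gene symbol, as a fixed list of cholesterol and SREBP lipid synthesis genes, and all 36 were found among the 47086 loci of the deposited expression table, each at a single locus. RNA was sequenced from primary hippocampal cultures after 14 days in vitro, with 3 wild type (WT) and 3 *Fmr1* knockout (KO) libraries, all labelled C57BL/6 and none treated. *Fmr1* encodes FMRP, an RNA-binding protein whose loss causes fragile X syndrome, and the KO lacks it in every cell from conception. The study's mice were male KO animals and WT littermates, and its cultures were made from newborn pups. Its data in general came from multiple culture batches and litters, with fewer litters for biochemical work on cultured neurons than for behaviour. Which litter, sex or batch stands behind each library is not given, so the p-values measure the spread between these libraries, which may be technical. Levels are FPKM, the fragments assigned to a gene per length of its transcript and per depth of the library. They can therefore be compared between genes as well as between libraries, while the number of reads behind them is unknown.

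Brain cholesterol is made on site, because lipoproteins of the blood do not pass the blood-brain barrier. Synthesis runs from acetyl-CoA through mevalonate and farnesyl diphosphate to squalene, and then through a long series of sterol steps. In neural cultures astrocytes are a main source, and they pass cholesterol to neurons on particles that carry apolipoprotein E. The genes of the route are driven by the transcription factor SREBP-2, and those of fatty acid synthesis more by SREBP-1. Both are held in the endoplasmic reticulum by SCAP and the INSIG proteins while sterol is plentiful, and are cut free when it is scarce. Cells with too much sterol instead switch on efflux pumps such as ABCA1 through the LXR receptors.

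The targeted gene did not separate the genotypes, since *Fmr1* had 19.0, 19.5 and 19.7 FPKM in WT, against 23.1, 21.8 and 18.5 in *Fmr1* KO, so the transcript does not check the labels. Across the 13195 tested loci, pairs of libraries correlated at 0.970 to 0.978 within a genotype and at 0.962 to 0.977 between genotypes (Pearson's r across genes, which are not independent replicates), and no library stood apart. A single noncoding RNA, Bc1, took 73.7 to 80.6% of the summed FPKM. The cultures held more than neurons: of the 12 neuronal markers all 12 were tested, with a summed level of 1865 to 1927 FPKM in WT and 1948 to 2023 in *Fmr1* KO, and the 12 astrocyte markers summed to 2280 to 2677 and 2308 to 2565. Oligodendrocyte lineage markers summed to 375 to 437 and 420 to 469 FPKM, with the myelin gene Mog near 0, and microglia markers to 5.83 to 8.03 and 1.32 to 3.80 FPKM, with Aif1 and Tmem119 listed at 0 throughout. Endothelial and mural markers summed to 7.93 to 8.64 and 7.04 to 8.07 FPKM, and fibroblast markers to 41.3 to 46.8 and 32.7 to 41.5, nearly all of it from Dcn.

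All 36 genes were expressed above the minimum of 1 FPKM in either genotype, and all 36 were tested. Their mean level had a median of 38.6 FPKM, against 10.2 over all tested loci. Apoe was the most abundant, at rank 16 of all tested loci, followed by the desaturase gene Scd2 at rank 32 and by Hmgcs1 at rank 119. Ebp was the lowest, with a mean of 6.80 FPKM.

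**Figure D1:**
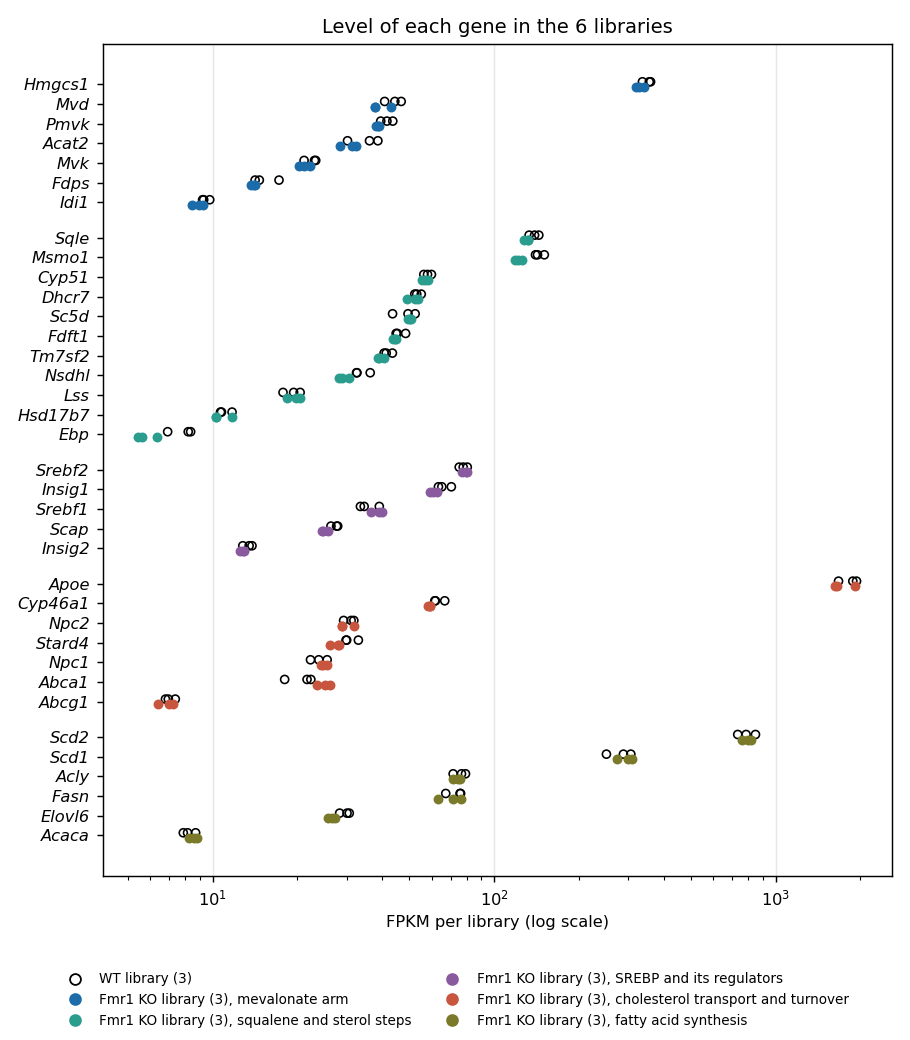
FPKM (log scale) of the 36 genes, grouped by role and ordered by level within a role; open points are the 3 WT libraries and filled points the 3 *Fmr1* KO libraries. Apoe and Scd2 lie farthest to the right, followed by Hmgcs1 and Scd1, and the libraries of the same gene lie close together beside the differences between genes.

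The differences between genotypes were small. Of the 36 genes, 27 had a lower and 9 a higher mean in *Fmr1* KO on the scale of log2(FPKM + 0.1), where 48.3% of all tested loci were lower. The median log2 change of the 36 genes was -0.075, beside 0.0050 over all tested loci. None of the 36 passed a Benjamini-Hochberg adjusted p of 0.05 in limma over all tested loci, where 0.265% of loci did (0.174% lower and 0.0909% higher). At an unadjusted p below 0.05 there were 7 lower genes (Ebp, Msmo1, Nsdhl, Stard4, Elovl6, Scap and Insig1), where 7.77% of all tested loci were called lower, and 1 higher gene (Abca1), where 6.99% were called higher. Without *Fmr1* KO replicate 3 the lower genes numbered 4. Ebp, Msmo1, Nsdhl and Abca1 had such a p under all 14 alternative settings, Stard4 and Elovl6 under 12, Scap under 10 and Insig1 under 7. In 11 of the 36 genes every *Fmr1* KO library lay below every WT library, as in 10.3% of all tested loci, and in 1 gene every *Fmr1* KO library lay above, as in 10.8%. For the 28 genes with an unadjusted p of 0.05 or above, the 95% intervals of the log2 change lay between -0.40 and 0.27.

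**Figure D2:**
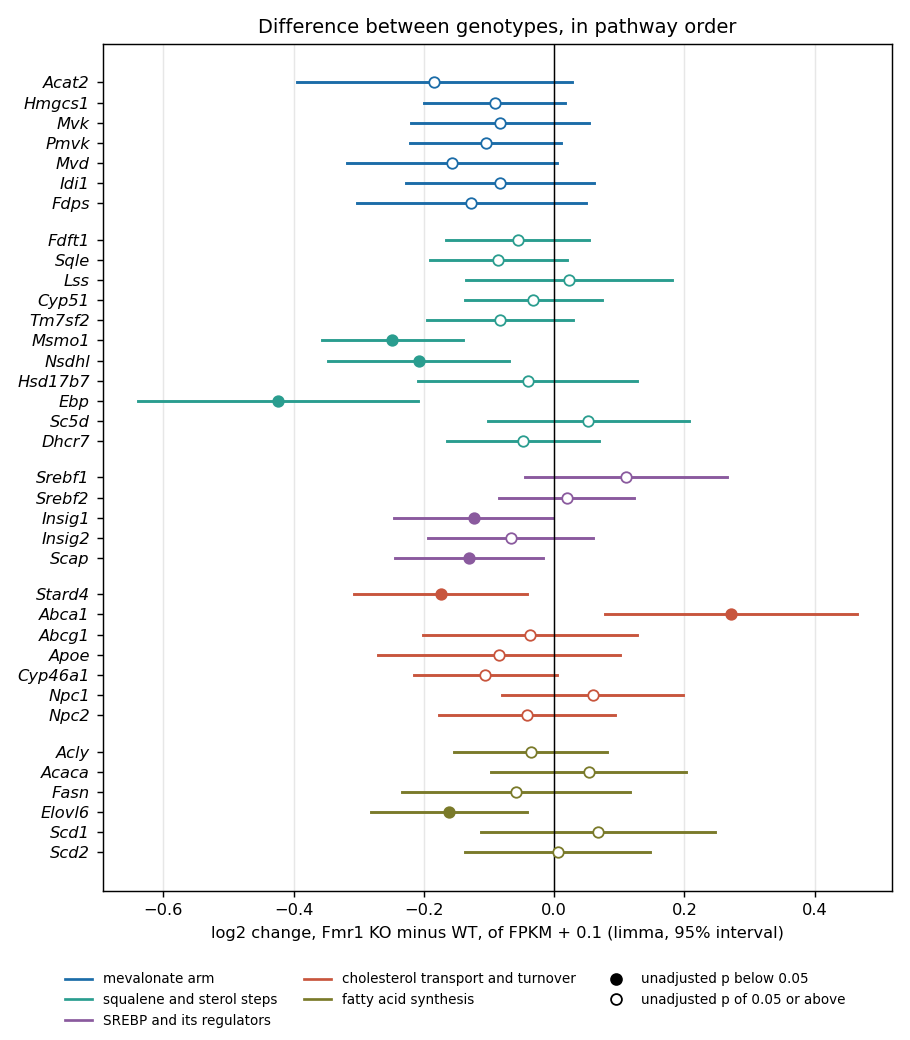
Log2 change of the 36 genes, *Fmr1* KO minus WT, on the log2(FPKM + 0.1) scale; points are limma estimates from 3 libraries per genotype, bars their 95% intervals, colours the roles, and filled points an unadjusted p below 0.05. The points of both sterol synthesis arms lie left of 0 except those of Lss and Sc5d, the lowest is Ebp at -0.42 and the highest is Abca1 at 0.27.

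The mevalonate arm makes farnesyl diphosphate, the precursor of sterols and of several other lipids. All 7 of its genes had a lower mean in *Fmr1* KO, where 48.3% of all tested loci were lower. The median log2 change of the 7 genes was -0.11, within a range from -0.18 to -0.083. None of the 7 had an unadjusted p below 0.05 in limma. Acat2, the cytosolic thiolase that joins acetyl units, had 38.6, 36.1 and 30.1 FPKM in WT, against 32.4, 28.3 and 31.1 in *Fmr1* KO. WT replicate 3 lay among the *Fmr1* KO libraries, and the log2 change of -0.18 (standard error 0.093) had an adjusted p of 0.401 in limma. The value rested on single libraries, since it was -0.29 without WT replicate 3 and -0.11 without WT replicate 1. Hmgcs1, the synthase that makes HMG-CoA, had 356, 360 and 336 FPKM in WT, against 341, 320 and 326 in *Fmr1* KO, which overlapped by a single pair of libraries. Its log2 change was -0.091 (95% interval -0.20 to 0.018). Hmgcs1 lies on chromosome 13 at 119690351 to 119708260, 36 kb from Ccl28 and 281 kb from Nnt, which had log2 changes of -1.82 and -0.73 (adjusted p = 0.00374 for each in limma). Nnt is known to differ between C57BL/6 substrains, so an effect of genotype and of strain alleles cannot be told apart there.

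The kinases and the decarboxylase that follow mevalonate had log2 changes from -0.083 in Mvk to -0.16 in Mvd. Mvk, mevalonate kinase, had 23.2, 21.1 and 23.0 FPKM in WT, against 20.3, 21.1 and 22.2 in *Fmr1* KO. Pmvk, phosphomevalonate kinase, had 43.6, 39.5 and 41.6 FPKM in WT, against 38.0, 38.8 and 39.1 in *Fmr1* KO, and was the only gene of this arm whose groups did not overlap. Its log2 change was -0.11 (limma adjusted p = 0.385, standard error 0.051). Of all tested loci, 10.3% had every *Fmr1* KO library below every WT library, and 10.8% had every one above. Mvd, the decarboxylase that makes isopentenyl diphosphate, had 46.7, 44.4 and 40.8 FPKM in WT, against 42.9, 37.6 and 37.8 in *Fmr1* KO, a log2 change of -0.16 (limma adjusted p = 0.353, standard error 0.071). Replicate 1 had the highest Mvd level in both genotypes. The isomerase gene Idi1, at 9.42 ± 0.299 FPKM in WT, against 8.88 ± 0.412 in *Fmr1* KO (SD, n = 3), and the farnesyl diphosphate synthase gene Fdps, at 15.3 ± 1.64 and 14.0 ± 0.243, also overlapped.

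Squalene synthesis opens the branch that leads to sterols alone. Of its 11 genes here, 9 had a lower and 2 a higher mean in *Fmr1* KO, where 48.3% of all tested loci were lower. The median log2 change of the 11 genes was -0.056. In 5 of the 11 every *Fmr1* KO library lay below every WT library, as in 10.3% of all tested loci. The summed level of the 11 genes was 610, 599 and 601 FPKM in WT, and the *Fmr1* KO sums were lower at 566, 558 and 555. Sqle and Msmo1 make up the largest parts of that sum. Over this arm and the mevalonate arm together, 16 of 18 genes had a lower mean in *Fmr1* KO, beside 48.3% of all tested loci. The median log2 change of the 18 genes was -0.085. With each library left out in turn, 15 to 18 of the 18 were lower and the median lay between -0.099 and -0.062.

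Within this arm Ebp, Msmo1 and Nsdhl had an unadjusted p below 0.05 in limma. Msmo1 encodes the methylsterol monooxygenase that begins to remove the methyl groups at carbon C-4 of the ring. It had 151, 140 and 143 FPKM in WT, against 125, 121 and 118 in *Fmr1* KO, so that the lowest WT library lay well above the highest *Fmr1* KO library. The log2 change was -0.25 (standard error 0.047, 95% interval -0.36 to -0.14), with an unadjusted p of 0.000606 and an adjusted p of 0.0755 in limma. Nsdhl, the dehydrogenase that follows Msmo1 in the same demethylation, had 32.5, 32.4 and 36.3 FPKM in WT, against 30.5, 28.9 and 28.1 in *Fmr1* KO. The groups did not overlap, and the log2 change was -0.21 (limma adjusted p = 0.191, standard error 0.061). Hsd17b7, the ketosteroid reductase that completes this step, had 10.7, 11.7 and 10.7 FPKM in WT, against 11.7, 10.2 and 10.3 in *Fmr1* KO, with overlapping groups and a log2 change of -0.040 (95% interval -0.21 to 0.13). The 3 enzymes of C-4 demethylation thus had unequal estimates, and differences between them were not tested.

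Ebp, the isomerase that shifts a double bond of the ring after demethylation, had the lowest log2 change of the 36 genes. Its FPKM was 8.35, 8.18 and 6.92 in WT, against 5.62, 6.32 and 5.44 in *Fmr1* KO. All 3 *Fmr1* KO libraries lay below all 3 WT libraries, with a log2 change of -0.42 (standard error 0.094, 95% interval -0.64 to -0.21) and an adjusted p of 0.107 in limma. Exact permutation tests of Ebp, Msmo1 and Nsdhl gave p = 0.1, the smallest that 3 libraries against 3 allow. Nsdhl and Ebp are both X-linked. Nsdhl lies at 72918521 to 72958528, 4.20 Mb from *Fmr1*, where alleles carried along with the *Fmr1* mutation and an effect of its loss cannot be told apart, and Ebp lies at 8185329 to 8193512, 60.5 Mb away. Among 73 tested loci that start within 10 Mb of *Fmr1*, 9 had an unadjusted p below 0.05 and a lower mean, as had 37 of 482 on the whole chromosome.

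**Figure D3:**
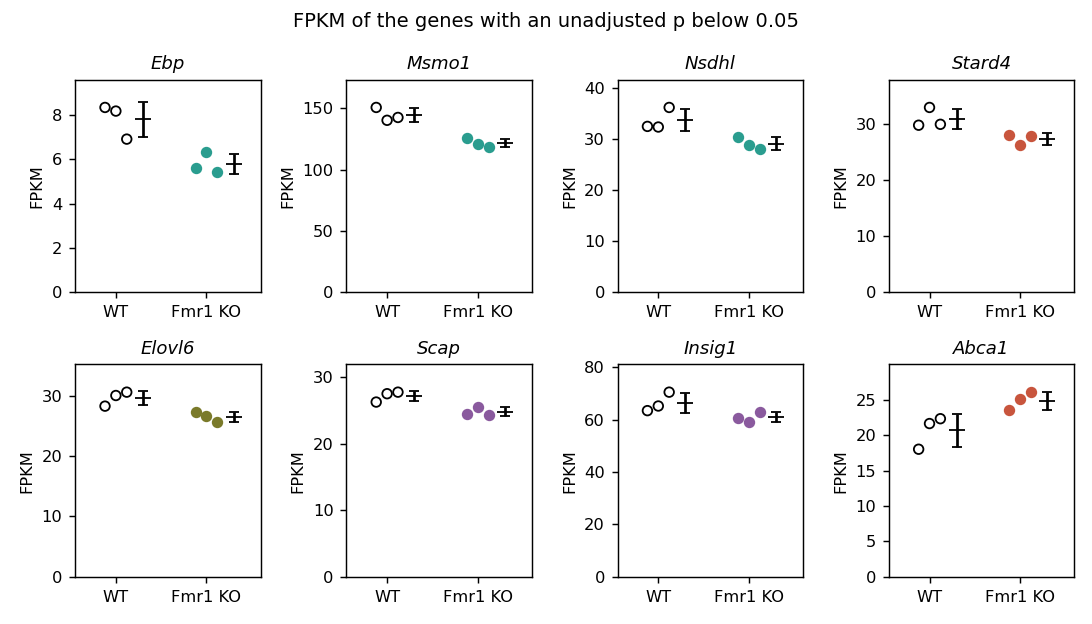
FPKM, from 0, of the 8 genes with an unadjusted p below 0.05, ordered by log2 change; open points are WT and filled points *Fmr1* KO libraries (replicates 1 to 3 from left to right), with the mean and SD at the right of each group. In each panel the groups do not overlap, with Abca1 higher and the other 7 genes lower in *Fmr1* KO.

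The remaining sterol genes showed smaller estimates. Fdft1, squalene synthase, had 48.5, 45.3 and 44.8 FPKM in WT, against 44.6, 43.9 and 44.8 in *Fmr1* KO. The groups were separated by a very narrow margin, with a log2 change of -0.056. Sqle, the squalene epoxidase and a rate-limiting step, had 144, 139 and 133 FPKM in WT, against 132, 132 and 128 in *Fmr1* KO, also without overlap, and a log2 change of -0.086 (limma adjusted p = 0.434, standard error 0.046). Lss, which closes the ring to lanosterol, was the opposite in sign, with 19.2 ± 1.34 FPKM in WT, against 19.5 ± 1.12 in *Fmr1* KO (SD, n = 3). Cyp51, the lanosterol demethylase, had 58.0 ± 1.82 and 56.7 ± 1.27 FPKM, and Dhcr7, a last reductase of the route, 53.5 ± 1.47 and 51.7 ± 2.42. The sterol reductase gene Tm7sf2 shares its locus with Vps51 in the deposited table, so its 41.8 ± 1.49 and 39.5 ± 1.10 FPKM cannot be given to either gene. The counts, medians and sums given for this arm and for all the genes include that locus as Tm7sf2. Sc5d, the desaturase before Dhcr7, had 43.6, 52.4 and 49.4 FPKM in WT, against 50.1, 49.4 and 50.8 in *Fmr1* KO, where the spread came from the WT libraries.

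Promoter letters were taken from the RefSeq table for GRCm38.p6, which matched 28 of the 36 genes, and searched on both strands for the SREBP core motif TCACNCCAC and for CCAAT, the motif of NF-Y, a factor known to act beside SREBP. The 28 genes had 38 windows of 300 bases, and a gene counted when any of its windows held the motif. CCAAT occurred in 22 of the 28 genes (78.6%), in 41.1% of all 27025 listed genes and in 43.3% of the 9610 tested genes that had a promoter. It was in all 9 matched genes of the squalene and sterol steps, in 5 of 6 of the mevalonate arm, in 4 of 5 SREBP genes, and in 2 of 4 each of the transport and fatty acid genes. Dhcr7 counted only through a window at 143829964 to 143830263, away from the gene start. The SREBP core motif occurred in 1 of the 28 genes, Hmgcs1, and in 1.44% of all genes, and no match says only that these letters are not in the window. The 250 bases before the start are shown in the gene's own direction for the 3 genes with the lowest log2 changes, for Hmgcs1 and for Abca1, the only higher gene at an unadjusted p below 0.05. Capitals mark CCAAT, its reverse ATTGG and, in Hmgcs1, the SREBP motif.
Msmo1, chr8:64733579-64733828, minus strand: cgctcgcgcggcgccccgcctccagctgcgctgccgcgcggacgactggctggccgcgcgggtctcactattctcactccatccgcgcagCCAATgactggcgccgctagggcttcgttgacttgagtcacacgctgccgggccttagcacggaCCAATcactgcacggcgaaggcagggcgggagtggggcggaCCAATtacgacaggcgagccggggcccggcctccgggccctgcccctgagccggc
Nsdhl, chrX:72918271-72918520, plus strand: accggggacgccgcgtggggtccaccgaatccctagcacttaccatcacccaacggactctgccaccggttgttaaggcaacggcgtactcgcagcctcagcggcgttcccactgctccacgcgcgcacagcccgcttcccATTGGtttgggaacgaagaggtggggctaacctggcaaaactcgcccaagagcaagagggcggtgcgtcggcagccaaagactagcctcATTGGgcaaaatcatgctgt
Ebp, chrX:8193513-8193762, minus strand: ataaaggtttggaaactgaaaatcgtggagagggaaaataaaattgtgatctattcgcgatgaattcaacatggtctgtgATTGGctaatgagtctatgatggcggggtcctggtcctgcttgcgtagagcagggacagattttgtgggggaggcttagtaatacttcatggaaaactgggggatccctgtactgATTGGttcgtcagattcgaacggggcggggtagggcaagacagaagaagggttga
Hmgcs1, chr13:119690101-119690350, plus strand: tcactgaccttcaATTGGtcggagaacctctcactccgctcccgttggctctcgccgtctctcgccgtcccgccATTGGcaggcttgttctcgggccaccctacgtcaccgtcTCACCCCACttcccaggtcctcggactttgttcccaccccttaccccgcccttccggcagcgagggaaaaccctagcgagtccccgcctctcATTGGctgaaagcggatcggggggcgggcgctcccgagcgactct
Abca1, chr4:53159896-53160145, minus strand: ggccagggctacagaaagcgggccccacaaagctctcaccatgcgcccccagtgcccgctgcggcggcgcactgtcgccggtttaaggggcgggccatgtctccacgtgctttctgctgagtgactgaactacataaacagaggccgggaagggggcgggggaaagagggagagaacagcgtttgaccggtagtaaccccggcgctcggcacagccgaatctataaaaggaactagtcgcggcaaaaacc
Msmo1 has 3 matches to CCAAT in these bases, Nsdhl and Ebp 2 each, and Hmgcs1 3 beside its SREBP motif, while Abca1 has none. Elovl6 and Scap, which were lower at an unadjusted p below 0.05 in limma, also have none in their windows, and Insig1 has 1. A link between the motif and the direction of change was not tested. These matches are letters in a window and not sites shown to be bound in the cultures.

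Of the SREBP genes and their regulators, 2 had a higher and 3 a lower mean in *Fmr1* KO. Srebf2, which encodes SREBP-2, had 75.1, 77.6 and 80.2 FPKM in WT, against 76.8, 79.4 and 79.9 in *Fmr1* KO. The groups overlapped almost fully, and the 95% interval of the log2 change reached from -0.084 to 0.12. Srebf1, which encodes SREBP-1, had 34.5, 33.5 and 39.1 FPKM in WT, against 36.5, 40.0 and 38.9 in *Fmr1* KO, a log2 change of 0.11 (limma adjusted p = 0.496, standard error 0.068). The genes of the proteins that hold SREBP had lower mean transcript levels. Scap, the escort that carries SREBP to the Golgi, had 26.3, 27.6 and 27.8 FPKM in WT, against 24.6, 25.6 and 24.4 in *Fmr1* KO, without overlap, and a log2 change of -0.13 (limma adjusted p = 0.283, standard error 0.050). Insig1, a retention protein that is itself an SREBP target, had 63.4, 65.2 and 70.4 FPKM in WT, against 60.7, 59.1 and 62.8 in *Fmr1* KO. Its groups lay close but apart, with a log2 change of -0.12 (limma adjusted p = 0.335, standard error 0.054). Without WT replicate 3 the log2 change was -0.079 (limma unadjusted p = 0.186). Its relative Insig2 had 13.3 ± 0.511 and 12.7 ± 0.201 FPKM (SD, n = 3), and the groups overlapped.

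Among the genes that move or remove cholesterol, Abca1 stood on the other side. ABCA1 loads cholesterol and phospholipid onto apolipoproteins and is a classic LXR target. Abca1 had 18.0, 21.6 and 22.3 FPKM in WT, against 23.5, 25.0 and 26.1 in *Fmr1* KO. Every *Fmr1* KO library was above every WT library, and the log2 change was 0.27 (standard error 0.085, 95% interval 0.079 to 0.46), with an adjusted p of 0.212 in limma. Without WT replicate 1, its lowest library, the estimate was the smallest of those with a library left out, at 0.18. Abcg1, a sister pump under the same control, had 6.79, 6.95 and 7.36 FPKM in WT, against 6.41, 6.96 and 7.20 in *Fmr1* KO, with overlapping groups and a log2 change of -0.037 (95% interval -0.20 to 0.13). Whether Abca1 and Abcg1 differed in response was not tested.

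Stard4, a soluble carrier of sterol between membranes and an SREBP target, had 29.8, 32.9 and 29.9 FPKM in WT, against 28.1, 26.2 and 27.8 in *Fmr1* KO. The groups did not overlap, with a log2 change of -0.17 (limma adjusted p = 0.234, standard error 0.058). Cyp46a1, the neuronal hydroxylase that turns cholesterol into a form that can leave the brain, had 66.7, 61.5 and 61.8 FPKM in WT, against 58.3, 58.9 and 59.3 in *Fmr1* KO. Its *Fmr1* KO libraries lay close together below all WT libraries, with a log2 change of -0.11 (limma adjusted p = 0.359, standard error 0.048). Apoe had 1881, 1674 and 1940 FPKM in WT, against 1655, 1620 and 1910 in *Fmr1* KO. Replicate 3 was the highest and replicate 2 the lowest in both genotypes, and the groups overlapped, with a 95% interval of the log2 change from -0.27 to 0.10. Npc1 and Npc2, which release cholesterol from lysosomes, had log2 changes of 0.059 and -0.041 with overlapping groups.

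Markers of the cell types in the cultures also differed in part, none at an adjusted p of 0.05 in limma. Of all tested loci, 7.77% were lower and 6.99% higher at an unadjusted p below 0.05. Of 12 astrocyte markers, 3 were lower at an unadjusted p below 0.05, namely S100b (log2 change -0.36), Atp1b2 (-0.21) and Gja1 (-0.19), none was higher, the median was -0.030, and Gfap had the highest log2 change, 0.14. Of 9 tested oligodendrocyte lineage markers, Olig2 (0.25) and Pdgfra (0.29) were higher and none was lower at the same threshold. Of 12 neuronal markers, Map2 (0.26) and Camk2a (0.16) were higher and Snap25 was lowest at -0.16. The 3 tested microglia markers C1qa, C1qb and C1qc had log2 changes of -2.03, -2.33 and -1.83 from levels near 1 FPKM. They passed the minimum of 1 FPKM only through WT. Their means were 1.43, 1.05 and 1.30 FPKM in WT, against 0.399, 0.163 and 0.357 in *Fmr1* KO. That filter favours a lower direction, and the other markers of the 12 were not tested. The fitted values depend on the pseudocount because C1qa and C1qb are listed at 0 in *Fmr1* KO replicate 2. Microglia can express Apoe, Abca1 and Npc2. Of 2 tested fibroblast markers, Dcn had -0.27 and Lum -0.24. Col1a1, Col1a2 and Col3a1, below 1 FPKM in both genotypes and not tested, went the other way. Their means were 0.418, 0.303 and 0.276 FPKM in WT, against 0.598, 0.485 and 0.339 in *Fmr1* KO. Of 3 tested endothelial and mural markers Rgs5 had 0.065 and Pdgfrb -0.050. In these bulk cultures fewer cells of a type and less RNA per cell cannot be told apart, and the part of these markers in the lipid gene values was not tested.

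The fatty acid synthesis genes of this list gave no common direction, with 3 genes higher and 3 lower. Their median log2 change was -0.015, and it turned to 0.025 without *Fmr1* KO replicate 1 and to 0.016 without WT replicate 3. Elovl6, which lengthens C16 fatty acids, had 28.2, 30.0 and 30.6 FPKM in WT, against 27.2, 26.6 and 25.6 in *Fmr1* KO. It was the only gene of this role without overlap, and its log2 change was -0.16 (limma adjusted p = 0.224, standard error 0.053). Over all tested loci, every *Fmr1* KO library lay below every WT library in 10.3% and above in 10.8%. Scd2, the main stearoyl-CoA desaturase gene of brain, had 734, 786 and 848 FPKM in WT, against 760, 799 and 815 in *Fmr1* KO, with a log2 change of 0.0053 (95% interval -0.14 to 0.15). Scd1 had 281 ± 28.2 FPKM in WT, against 294 ± 18.8 in *Fmr1* KO (SD, n = 3), and its log2 change was 0.068. These paralogs lie side by side on chromosome 19 and can share reads, which the sources used here do not say how the authors assigned, and the Scd2 locus also carries Mir5114. Acly, the source of cytosolic acetyl-CoA, had 75.7 ± 3.87 FPKM in WT, against 73.8 ± 1.96 in *Fmr1* KO (SD, n = 3), Acaca, acetyl-CoA carboxylase, 8.23 ± 0.425 and 8.54 ± 0.264, and Fasn, fatty acid synthase, 73.0 ± 4.92 and 70.2 ± 6.50. All of these overlapped between genotypes.

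The libraries of a genotype differed by role. WT replicate 1 was the lowest WT library for all 6 fatty acid genes, and *Fmr1* KO replicate 1 the lowest *Fmr1* KO library for 5 of the 6, with Elovl6 as the exception. In the mevalonate arm WT replicate 1 was instead the highest WT library for 5 of 7 genes, while *Fmr1* KO replicate 1 was the highest for 4 and the lowest for 3 of the 7, and replicate 1 was the highest in both genotypes for 2. The median deviation of the mevalonate genes from their WT means was 0.070, -0.019 and -0.059 on the log2 scale in WT replicates 1, 2 and 3 and -0.10, -0.11 and -0.12 in the *Fmr1* KO replicates. For the fatty acid genes the same measure was -0.092, 0.029 and 0.070 in WT, against -0.065, 0.0087 and 0.056 in *Fmr1* KO.

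**Figure D4:**
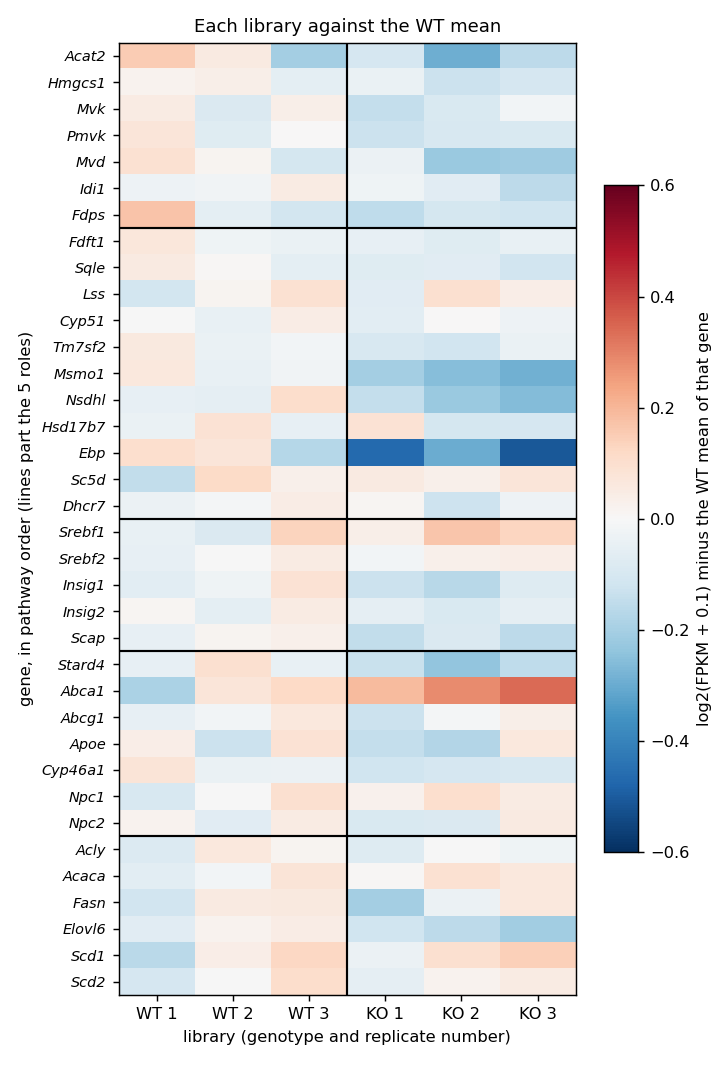
log2(FPKM + 0.1) of each gene in each library minus the WT mean of that gene, for the 36 genes in pathway order (rows) and the WT and *Fmr1* KO libraries by replicate number (columns); blue is lower and red higher. Ebp, Msmo1 and Nsdhl are blue in all 3 *Fmr1* KO columns, Abca1 is red in them, and the fatty acid genes are blue in WT replicate 1.

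Further genes of the same metabolism also showed small differences, which varied between the lists, and none passed an adjusted p of 0.05 in limma. Of 15 tested genes of fatty acid synthesis outside the 36, 10 were lower and 5 higher, with a median log2 change of -0.11. At an unadjusted p below 0.05, 5 were lower and 1 higher, where 7.77% of all tested loci were lower and 6.99% higher. Hsd17b12, a reductase of fatty acid elongation, had 76.8, 73.8 and 74.4 FPKM in WT, against 64.6, 59.8 and 64.4 in *Fmr1* KO, a log2 change of -0.25 (limma adjusted p = 0.0766, standard error 0.049) with a wide gap between the groups. Acss2, which makes acetyl-CoA from acetate, had a log2 change of -0.18, the elongases Elovl4 and Elovl2 of -0.21 and -0.23, and Tecr, the last enzyme of the elongation cycle, of -0.13. The desaturase gene Fads1 was on the other side at 0.12.

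Of 23 tested further sterol and SREBP genes, 12 were lower and 11 higher. Their median log2 change was -0.020, and 2 of the lower ones had an unadjusted p below 0.05. That was 8.7% of the 23, near the 7.77% of all tested loci called lower. The lowest was Clu, an apolipoprotein of astrocytes, at -0.13 (411, 364 and 408 FPKM in WT, against 359, 365 and 356 in *Fmr1* KO, with overlap). Of 9 genes of the isoprenoid branches that leave the route at farnesyl diphosphate, 4 were lower and 5 higher, with a median of 0.018, from Pdss2 at -0.045 to Pdss1 at 0.18, and none had an unadjusted p below 0.05.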

How the data were processed

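Adapter clipping (Fastx Clipper), trimming (sickle), mapping to GRCm38 (TopHat2), gene building (Cufflinks) and testing (Cuffdiff) were done by the authors. No source used here names versions, annotation, library type or scaling between libraries. The deposited values are FPKM for each library, which were analysed, and group FPKM, log2 fold changes, p-values and q-values from the authors' own comparison, which were not. Each of 47086 loci (48100 rows) was taken once. Positions are 1-based, span overlapping neighbours, and matched the RefSeq gene start for 25 of the 36 genes.

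Loci with a mean of at least 1 FPKM in either genotype were tested as log2(FPKM + 0.1) with limma 3.58.1 in R 4.3.3, with genotype as the only term, a mean-variance trend, two-sided tests and Benjamini-Hochberg adjustment over all 13195, after a check on simulated data. Changes on this scale understate those of low genes. FPKM give no read depth, so precision rests on the spread of 3 libraries per genotype. Single genes were also compared by exact permutation. No set test was run. The members and lists were chosen with earlier results of these data known. All 36 genes are named; of the other lists, genes with an unadjusted p below 0.05 and the extremes, though a few single genes are not reported here. Alternatives were other pseudocounts, FPKM minimums, centring, no trend, a replicate block, summed loci and each library left out.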

Additional observations from a re-analysis of the deposited data

How the results depend on the processing

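Of the 504 log2 changes of the 36 genes under 14 alternatives, 493 kept their sign and their side of the adjusted threshold, and none passed an adjusted p of 0.05 in limma under any of them. The other 11 changed sign, all with 1 library left out and in genes with estimates near 0. Over the fits that left out a library, Lss ranged from -0.031 to 0.069 (below 0 without WT replicate 1 and, at -0.013, without *Fmr1* KO replicate 2), Sc5d from -0.022 to 0.11, Srebf2 from -0.0042 to 0.043 and Scd1 from -0.014 to 0.13 (each below 0 without WT replicate 1). Scd2 ranged from -0.046 to 0.059 and was below 0 without WT replicate 1, *Fmr1* KO replicate 2 (-0.0021) or *Fmr1* KO replicate 3 (-0.016). Hsd17b7 ranged from -0.10 to 0.0028 (above 0 without WT replicate 2), Abcg1 from -0.072 to 0.010 and Fasn from -0.12 to 0.015 (both above 0 without *Fmr1* KO replicate 1).

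When single libraries were left out, 4 to 7 of the 36 genes were lower and 1 to 2 higher at an unadjusted p below 0.05, of which 3 to 5 were lower sterol synthesis genes (5 without WT replicate 3). With all libraries, 7.77% of all tested loci were lower and 6.99% higher at that threshold. The shares in the other fits, the replicate block included, are not given. Of the other pathway genes 3 to 7 had an unadjusted p below 0.05, where there were 8 with all libraries and 5 without the trend. The median of the squalene and sterol steps lay between -0.077 and -0.048. Over all tested loci, 12 were higher and 23 lower at an adjusted p of 0.05. There were 6 and 9 without an FPKM minimum, 20 and 34 at a minimum of 5, 7 and 14 without the trend, and 4 to 8 and 10 to 14 with a library left out. With the replicate number as a block there were 29 and 36, and 5 sterol synthesis genes were lower at an unadjusted p below 0.05. Deviations of same-numbered libraries correlated at 0.243, 0.0577 and 0.0801. Replicate 1 paired with another number gave -0.152 to -0.119, and replicates 2 and 3 paired with each other gave 0.0658 and 0.0781. Replicate 1 was thus alike in both genotypes, while replicates 2 and 3 were not told apart by number. The numbers were therefore not taken to pair all the libraries, and entered only as the block. Msmo1 had an adjusted p of 0.0502 under the block. The causes of these shifts were not tested. Unknown depth and 3 libraries per genotype limit what can be seen at this size of change.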
